A study of Macaca mulatta with 12 samples.

Results

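Late functional corpora lutea are glands taken from rhesus macaques at days 14 to 16 after the midcycle surge of luteinizing hormone (LH), while serum progesterone was still above 1.5 ng/ml. There were 4 of them among the 12 glands measured, 1 array per gland. They were set against the equally weighted means of 4 mid-late glands, from days 10 to 12, and 4 late regressed glands, from the same days 14 to 16 but with serum progesterone below 0.5 ng/ml. The contrast looks for transcripts that peak or dip in the late gland that still secretes progesterone. It sets that gland against the mean of the earlier functional gland and the regressed gland of the same age. A difference from each of the 2 is not required. All 12 glands came from females with normal menstrual cycles, and nothing in the labels says whether glands were pooled. The late functional group was defined by progesterone at the time of collection, so that hormone is not an outcome here. Each array reads RNA from a whole gland, in which luteal, endothelial, stromal and immune cells are mixed. In such a mixture, fewer cells of a type and less RNA per cell cannot be told apart.

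After ovulation the emptied follicle becomes the corpus luteum, which makes progesterone under the drive of LH. In a primate cycle without pregnancy it regresses in the late luteal phase, first losing steroid output and later its tissue. Immune cells, above all macrophages, are known to be present in the gland and to grow in number around regression. Cells display peptides on class I molecules of the major histocompatibility complex (MHC) after the proteasome cuts proteins, the TAP transporter carries the peptides into the endoplasmic reticulum and the ERAP aminopeptidases trim them. Interferons induce most of that machinery together with a broader set of antiviral genes.

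All values are log2 array values from the RMA procedure, so a difference of 1 is a 2-fold difference. No array quality measure gave a p below 0.05 for late functional arrays in exact two-sided permutation tests of 4 against 8 arrays, in which the smallest possible p is 0.00202. The exact p was 0.519 for the difference between 3' and 5' control probe sets, 0.323 for the mean of 674 mostly dim probe sets with the prefix NC and 0.297 for the array median. These tests pooled the 8 other arrays. The 3' to 5' difference ran from 0.534 to 0.613 in late functional arrays and from 0.625 to 0.689 in mid-late arrays, without overlap. The NC mean ran from 3.53 to 3.61 and from 3.65 to 3.75 in that order, again without overlap. The part of array quality in the differences from mid-late glands was not tested. Late regressed arrays 2 and 3 stood apart from the other 10 on the first principal component, which held 40.8% of the variance, with scores of 93.2 and 81.6 against a highest score of 12.6 elsewhere. Late regressed array 2 also had a 3' to 5' difference of 2.52, where the other 11 arrays ran from 0.462 to 0.699. Late functional array 4 had the lowest score on the second component, at -39.8. Luteal markers were present: all 6 measured had a mean over the 12 arrays above 4.64, the 95th percentile of the dim NC set.

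Few transcripts separated the late functional gland from the mean of the other states. Of 52707 probe sets tested, 10 were called by limma at an adjusted p below 0.05, which is 0.0190%: 9 were higher (0.0171%) and 1 was lower (0.00190%). The called probe sets carried 7 gene symbols, CACNB2, ERAP2, KALRN, RTP4, SAMD9L and ST8SIA1 among the increases and FAM210B as the decrease, and 1 increase had no symbol. With each gene read by its brightest probe set, 6 of 14132 genes were called (0.0425%). In all 10 the late functional mean lay beyond both other group means, and in 9 the 4 late functional arrays did not overlap the 8 others. At an unadjusted p below 0.05 there were 2316 higher (4.39%) and 2472 lower (4.69%) probe sets. The median contrast over 14132 genes was -0.01, and its median standard error (SE) over probe sets was 0.10. The count of 10 depended on single arrays. It was 64 without late functional array 4, 32 without late regressed array 1 and 22 without late regressed array 2. It was 6 without mid-late array 1, 5 without mid-late array 4, and 2, 1 and 3 without late functional arrays 1, 2 and 3.

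**Figure D1:**
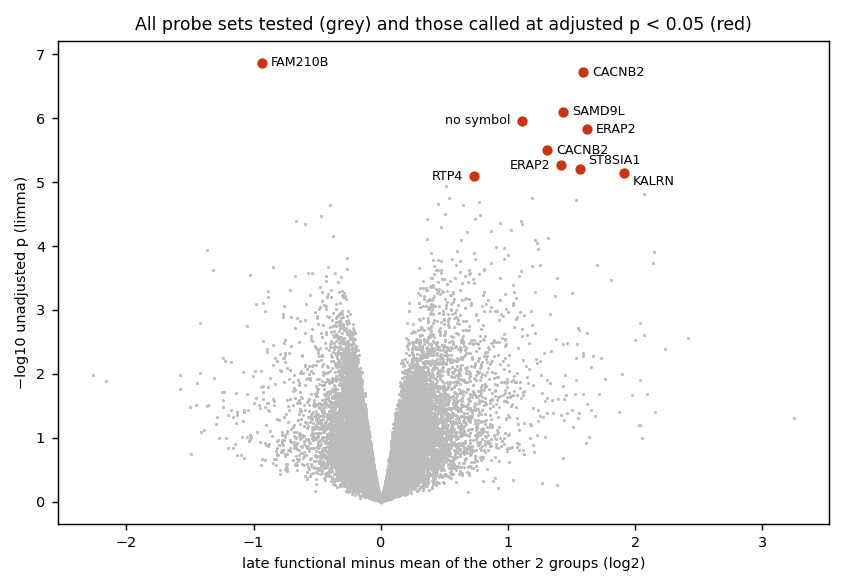
Each of the 52707 probe sets by its contrast (x axis, late functional minus the mean of the mid-late and late regressed group means, log2) and its unadjusted limma p (y axis, -log10). The 10 probe sets called at an adjusted p below 0.05 are red and named, 9 of them to the right of 0 and FAM210B alone to the left.

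The 2 comparisons that make up the contrast share the 4 late functional arrays and are given side by side. Against mid-late glands limma called 470 probe sets (0.892%), 175 higher (0.332%) and 295 lower (0.560%) in late functional glands. With 1 probe set per gene these were 166 genes (1.17%), 82 higher (0.580%) and 84 lower (0.594%). Against late regressed glands it called 1, again the FAM210B probe set, lower in the late functional gland (0.00190%), and 0 higher (0.00%). The unadjusted counts against late regressed glands were 2872 higher (5.45%) and 3372 lower (6.40%). A stricter limma test asked for a difference of the same sign from each of the other groups. It called 0 peaks (0.00%) and 1 dip, FAM210B (0.00190%, adjusted p = 0.0395), where an unadjusted p below 0.05 gave 606 peaks (1.15%) and 247 dips (0.469%). That call of FAM210B was kept in 1 of 12 leave-one-out fits, the one without late functional array 4. Late functional arrays lay above all 8 others for 299 probe sets (0.567%) and below all 8 for 171 (0.324%). Of these, 41 were higher by at least 2-fold and 1 was lower by at least 2-fold.

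CACNB2 encodes a regulatory beta subunit of voltage-gated calcium channels. Its probe set with the smallest p read 6.33, 6.75, 6.52 and 6.72 in the 4 late functional glands. The mid-late glands read 4.74, 4.63, 5.01 and 4.81, and the late regressed glands read 5.11, 5.16, 4.77 and 5.68. Every late functional gland was above every other gland, and the highest of the others was late regressed gland 4. The contrast was 1.59 (SE 0.15; 95% interval 1.27 to 1.91), a 3.01-fold increase (limma, adjusted p = 0.00497). A second CACNB2 probe set was called too, with means of 6.88 ± 0.29 (SD, n = 4) in late functional glands, 5.51 ± 0.28 at mid-late and 5.63 ± 0.28 after regression and an adjusted p of 0.0277. The third read 4.01 to 4.28 in late functional glands and at most 3.81 elsewhere, without a call (adjusted p = 0.162). All of its values lay under 4.64, the 95th percentile of the dim NC set. Thus all 3 CACNB2 probe sets had no overlap between late functional glands and the rest.

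SAMD9L is an interferon-inducible gene that restrains growth and viral replication. Late functional glands read 9.49, 9.53, 9.03 and 9.55, and late functional gland 3 was the lowest of them. Mid-late glands read 7.67, 7.53, 8.36 and 7.98. Late regressed glands read 8.08, 8.16, 8.13 and 7.82. No late functional gland overlapped the others, and the late regressed values lay within the mid-late range. SAMD9L was 2.70-fold higher in late functional glands (contrast 1.43, SE 0.15, adjusted p = 0.0139). Of its 3 probe sets, 2 pointed the same way with no overlap, and the third sat near 3.1 in most arrays, under the NC percentile of 4.64.

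ERAP2 encodes an aminopeptidase of the endoplasmic reticulum that trims peptides for class I display, and both of its probe sets were called. The brighter one read 6.04, 6.24, 6.14 and 6.01 in late functional glands, a narrow band. It read 4.15, 4.22, 4.90 and 4.85 in mid-late glands and 4.86, 3.91, 4.42 and 4.57 in late regressed glands. No gland of the other groups came within 1 log2 unit of the late functional mean of 6.11. The contrast was 1.62 (SE 0.18), a 3.08-fold increase with an adjusted p of 0.0156. The other ERAP2 probe set gave a contrast of 1.41 (SE 0.18; adjusted p = 0.0410), again with no overlap. Mean ERAP2 values in the mid-late and late regressed groups, 4.53 and 4.44, lay under the NC percentile, so the signal there was dim.

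KALRN, a guanine nucleotide exchange factor for small GTPases, was dim outside the late functional gland in its called probe set, with the other group means, 4.28 and 4.01, under the NC percentile. Late functional glands read 6.65, 6.13, 6.27 and 5.18. Mid-late glands lay in a band from 4.18 to 4.37, and late regressed glands read 4.69, 3.61, 3.74 and 4.01. All 4 late functional glands were above the rest, with late functional gland 4 the lowest of its group by 0.95. KALRN was 3.76-fold higher (contrast 1.91, SE 0.25, adjusted p = 0.0417). Its other probe set read 9.06, 8.94, 8.91 and 7.99 in late functional glands against 7.40 at most elsewhere, without a call (adjusted p = 0.143).

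ST8SIA1 encodes the sialyltransferase that makes the ganglioside GD3. It read 7.94, 7.81, 7.95 and 8.68 in late functional glands, 6.90, 5.83, 6.68 and 6.37 in mid-late glands and 6.76, 6.34, 6.72 and 6.64 in late regressed glands. Late functional gland 4 was the highest of all 12, and the groups did not overlap. ST8SIA1 was 2.95-fold higher (contrast 1.56, SE 0.20, adjusted p = 0.0416). RTP4, an interferon-inducible chaperone of cell surface receptors, was dim throughout. It read 4.75 to 5.14 in late functional glands, 3.88 to 4.20 in mid-late and 4.10 to 4.45 in late regressed glands, and was 1.66-fold higher (contrast 0.73, SE 0.10, adjusted p = 0.0429). ST8SIA1 and RTP4 had 1 probe set each.

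The called probe set without a gene symbol, MmuSTS.2833.1.S1_at, was the one with an overlap. Late functional glands read 7.98, 8.08, 8.02 and 8.10 and mid-late glands 6.32, 6.22, 6.53 and 6.40. Late regressed glands read 7.35, 7.26, 7.43 and 8.0, so that late regressed gland 4 reached the late functional range. Its difference was 1.68 against mid-late glands (adjusted p = 0.00318) and 0.54 against late regressed glands (adjusted p = 0.211).

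**Figure D2:**
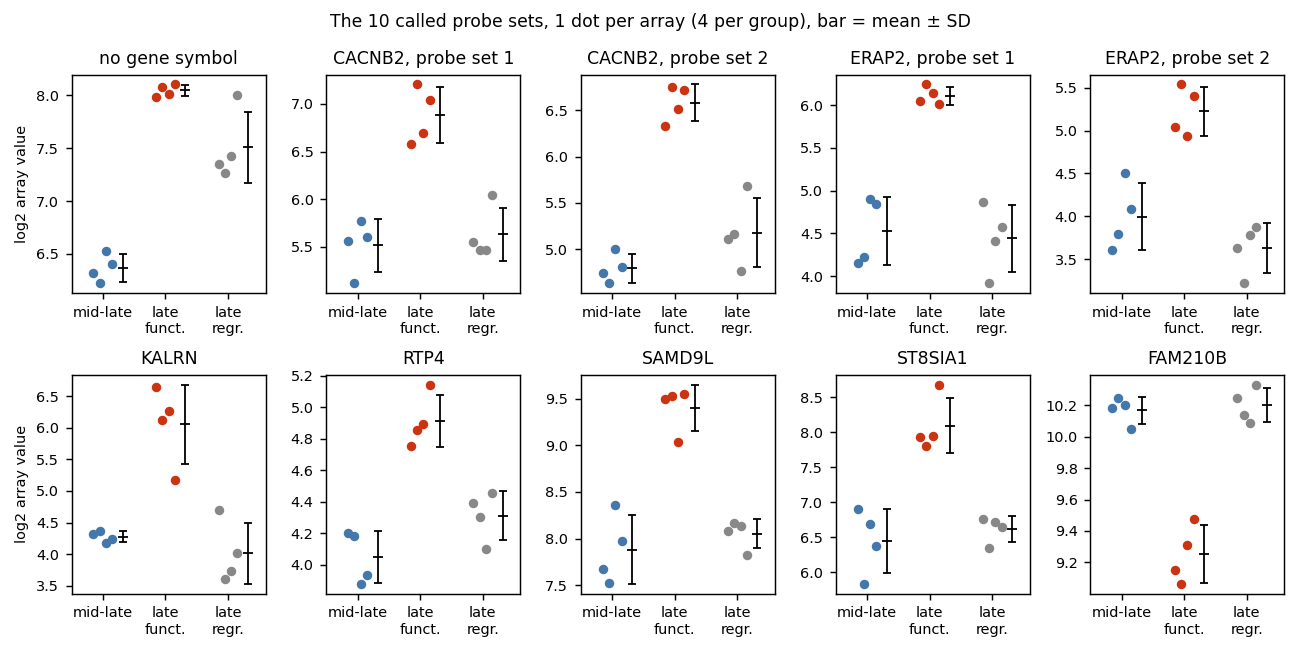
Log2 array value of each of the 10 called probe sets in every gland (1 dot per array, 4 per group), with the group mean and SD beside the dots. Late functional dots (red) lie above all others in 8 panels and below all others for FAM210B, and in the panel without a gene symbol late regressed gland 4 reaches them at 8.0.

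FAM210B, a mitochondrial membrane protein tied to iron use and haem synthesis in red cell precursors, was the single called decrease. The called probe set read 9.15, 9.06, 9.31 and 9.48 in late functional glands. It read 10.18, 10.24, 10.20 and 10.05 in mid-late glands and 10.25, 10.14, 10.09 and 10.33 in late regressed glands. The other 8 glands sat within 0.29 of each other and every late functional gland lay below them. The contrast was -0.93 (SE 0.08; 95% interval -1.12 to -0.75), a 1.91-fold lower value with an adjusted p of 0.00497. The gene's other probe sets did not share this dip. One read 9.02, 8.96, 9.16 and 9.14 in late functional glands, above the mid-late values of 8.47 to 8.59 and overlapping the late regressed values of 8.70 to 9.33, with a contrast of 0.35. The other had a contrast of 0.13. Averaged over its 3 probe sets, FAM210B had a contrast of -0.15 (adjusted p = 0.629). The dip therefore describes 1 probe set and not the gene as a whole, and no source used here tells which transcripts these probe sets read.

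The 10 calls differed in how they bore the loss of 1 array. FAM210B stayed called in 12 of 12 fits that each left out 1 array, the first CACNB2 probe set in 11, SAMD9L in 10, and the brighter ERAP2 probe set and the probe set without a symbol in 9. The second CACNB2 probe set stayed called in 7, the dimmer ERAP2 probe set and ST8SIA1 in 5, RTP4 in 4 and KALRN in 3. With the mean of the NC probe sets as a covariate, none of the 10 was called in limma, and 3988 probe sets had an unadjusted p below 0.05. In that fit the first CACNB2 contrast was 1.62 (adjusted p = 0.0577), that of SAMD9L 1.28 (adjusted p = 0.0790) and that of FAM210B -0.87 (adjusted p = 0.0577).

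From the genes with late functional glands above all others but no call, 6 more were taken in order of p and are given as values. With 1 probe set per gene, 119 of 14132 genes (0.842%) lay above all others, called or not. CALHM6, a channel family gene known to be induced by interferon in macrophages, has 4 probe sets. The one with the smallest p was dim outside the late functional gland, with the other group means, 3.63 and 3.81, under the NC percentile. It read 6.07, 5.96, 6.32 and 4.78 in late functional glands, 3.20 to 4.12 in mid-late and 3.35 to 4.49 in late regressed glands. Its contrast was 2.07 (SE 0.29, adjusted p = 0.0637), with late functional gland 4 again the lowest of its group. The brightest CALHM6 probe set, the only one with a mean above the NC percentile, had a contrast of 0.36 without overlap (limma, adjusted p = 0.326). The remaining ones had 1.38, with overlap, and -0.01. CLCN3, a chloride and proton exchanger of endosomes, read 10.35 to 10.47 against at most 10.18, with a contrast of 0.64, and all 4 of its probe sets had the same sign. ALG6, a glucosyltransferase of N-glycan assembly, had a contrast of 0.54 in a probe set that read at most 4.49, under the NC percentile, and 0.21 with overlap in its brighter probe set. SEC22B, a SNARE protein of transport between the endoplasmic reticulum and the Golgi, had 0.45. MRPL44, a protein of the mitochondrial ribosome, had 0.74, and PSMF1, an inhibitor of the proteasome, 0.36. In the probe sets that placed these 6 genes, adjusted p-values ran from 0.0637 to 0.0818. SEC22B, MRPL44 and PSMF1 have 2, 5 and 4 probe sets, and only 1 of each had no overlap. The sign was shared by 3 of 5 for MRPL44 and 3 of 4 for PSMF1. For MRPL44, 2 of 5 had a mean above the NC percentile. The next gene in that order was SLC9A5 (contrast 1.10, adjusted p = 0.0818).

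From the genes with late functional glands below all others but no call, 11 were taken in order of p. With 1 probe set per gene, 41 of 14132 genes (0.290%) lay below all others, called or not. STC1, the secreted glycoprotein stanniocalcin 1, read 7.82, 7.88, 7.40 and 7.69 in late functional glands. Mid-late glands read 8.89, 8.77, 7.97 and 9.08, and late regressed glands 8.99, 8.76, 8.44 and 8.12. The groups did not overlap, yet the nearest values lay within 0.09 of each other, and the contrast was -0.93 (adjusted p = 0.221). PRMT1, the main arginine methyltransferase, read 4.62 to 4.81 against at least 5.04 (contrast -0.67, adjusted p = 0.0818). Mitochondrial energy genes among the 11 were ATP5F1D, the delta subunit of ATP synthase (contrast -0.60, adjusted p = 0.0818), and DLAT, the acetyltransferase of pyruvate dehydrogenase (contrast -0.67, adjusted p = 0.175). Each rested on 1 probe set. The brighter ATP5F1D probe set had a contrast of -0.06 and the other DLAT probe set -0.13, both with overlap. HNRNPH1, a splicing factor, had a contrast of -0.89 (adjusted p = 0.200), and 4 of its 6 probe sets had no overlap. AFF2 had -0.85, ACAP2 -0.71, HAGHL -0.57, PCMT1 -0.56, KIAA1755 -0.41 and RGS4 -0.34, with adjusted p-values from 0.170 to 0.204. No probe set of AFF2, KIAA1755 or RGS4 had a mean over the 12 arrays above the NC percentile, so their differences lay in the dim range. For ACAP2 only 1 of 3 probe sets had this sign, and for PRMT1, ATP5F1D, AFF2, DLAT, KIAA1755, PCMT1 and STC1 only 1 probe set each had no overlap. The next gene in that order was SYNJ2 (contrast -0.91, adjusted p = 0.235).

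Class I and class II antigen presentation was the gene list with the highest median contrast of the 34 examined. Of 16 measured members, 1 rose by the test, ERAP2, beside 0.0354% of all 14132 genes called higher. Another 9 had a positive contrast with an unadjusted p below 0.05, which makes 10 of 16 beside 5.83% of all genes. The median contrast was 0.71 (0.68 against mid-late and 0.13 against late regressed glands), beside -0.01 for all genes, and it was 0.33 with the NC mean as a covariate. In 11 of 16 the late functional mean was above both other means, beside 23.5% of all genes. In 3, ERAP2, TAP2 and NLRC5, all late functional glands lay above all others, beside 0.842% of all genes (and 0.290% that lay below). The list was chosen with earlier results of these data known, so its count is not independent evidence of its direction.

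Averaged over the 16 genes, late functional glands read 9.77, 9.74, 9.68 and 9.71. Mid-late glands read 8.61, 9.01, 9.23 and 9.09, and late regressed glands 9.28, 9.0, 9.42 and 9.30. Late functional glands lay above all others and were the tightest group. The members named in the rest of this paragraph were chosen after their values were seen. TAP2, a subunit of the peptide transporter, read 8.39, 8.29, 8.16 and 7.63 in late functional glands against 7.62 at most elsewhere, so late functional gland 4 cleared the others by 0.01. The contrast of TAP2 was 0.62 (adjusted p = 0.174). NLRC5, the transactivator of class I genes, read 8.97, 8.96, 8.84 and 8.64 against at most 8.50, with a contrast of 0.80 (adjusted p = 0.324). TAP1, the other transporter subunit, averaged 9.64 ± 0.38 (SD, n = 4) in late functional glands, 8.88 ± 0.60 at mid-late and 8.18 ± 0.54 after regression.

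Within this list the sizes of the differences from the other 2 groups varied between genes, and whether the 2 differences were unequal was not tested. IRF1, an interferon-induced transcription factor, read 7.75 to 7.77 in all late functional glands and 6.02 to 6.78 in mid-late glands, and it rose against mid-late glands (1.35, adjusted p = 0.0358). Late regressed glands read 7.11, 7.16, 8.20 and 7.12 for IRF1, a difference of 0.36 without a call (adjusted p = 0.591). CD74, the invariant chain of class II molecules, differed by 1.35 from mid-late and by 0.60 from late regressed glands, and the class II gene MAMU-DRA by 1.44 and 0.16. CIITA, the class II transactivator, was dim and differed by -0.19 and 0.10. MAMU-E, a class I gene, differed by 0.37 and 1.98. Its late regressed glands 1 to 4 read 10.97, 9.14, 7.20 and 11.91, so the low values came from glands 2 and 3. Class I genes of macaques have near-identical copies, so probe sets for MAMU-A and MAMU-E may read several loci. No member other than ERAP2 and IRF1 was called against mid-late glands, and none was called against late regressed glands.

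**Figure D3:**
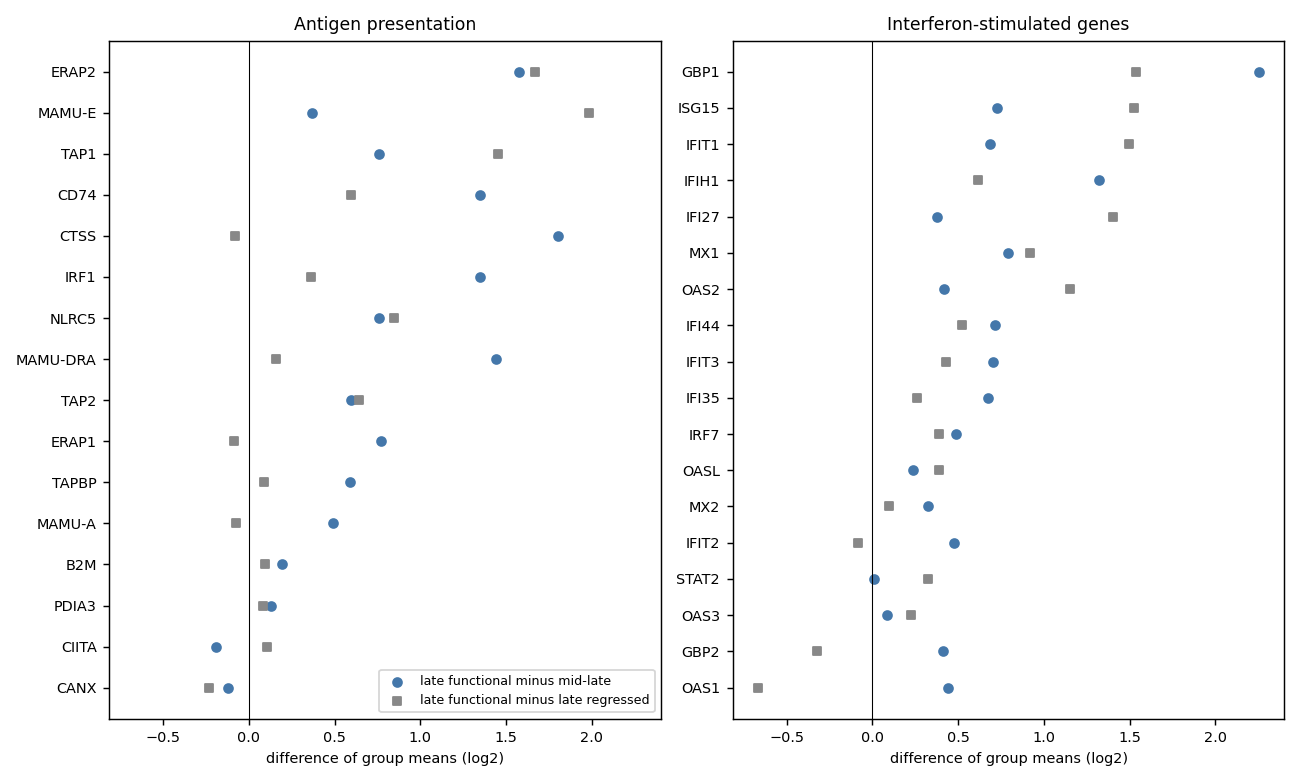
Difference of group means (x axis, log2) for each measured gene of the antigen presentation list (left, 16 genes) and the interferon list (right, 18 genes), late functional minus mid-late (circles) and late functional minus late regressed (squares). Both marks share the late functional arrays; in the interferon list 18 of 18 circles and 15 of 18 squares lie above 0.

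Interferon-stimulated genes were the other list in which late functional glands lay above all others. The mean over 18 measured genes was 8.02, 8.09, 7.93 and 7.82 in late functional glands. It was 6.60, 7.35, 7.74 and 7.70 in mid-late glands and 7.44, 7.10, 7.75 and 7.30 in late regressed glands. The lowest late functional gland exceeded the highest other gland by 0.07, and mid-late gland 1 was the lowest of all. No member was called (0 higher by limma, beside 0.0354% of all genes), 8 of 18 were higher at an unadjusted p below 0.05 (beside 5.83%) and 0 were lower (beside 4.13%). The median contrast was 0.52 (0.48 against mid-late and 0.41 against late regressed glands), and it was 0.37 without mid-late gland 1 and 0.18 when the NC mean was a covariate. In 15 of 18 the late functional mean was above both other means. This list too was chosen with earlier results known.

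IFIT1, an RNA-binding antiviral protein, read 9.02, 9.35, 8.92 and 8.37 in late functional glands, 7.61 to 8.69 in mid-late and 6.83 to 7.94 in late regressed glands. Late functional gland 4 lay inside the mid-late range, and the contrast was 1.09 (SE 0.25, adjusted p = 0.237). IFI35, an interferon-induced leucine zipper protein, rose against mid-late glands (0.67, adjusted p = 0.0475) and differed by 0.26 from late regressed glands (adjusted p = 0.497). GBP1, an interferon-induced GTPase named after its values were seen, had the largest contrast of the list, 1.90 (SE 0.62, adjusted p = 0.405), and a spread from 5.95 to 9.19 in late regressed glands. OAS1 was the member with a negative contrast, -0.12, with group means of 7.98 for late functional, 7.54 for mid-late and 8.64 for late regressed glands.

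Proteasome and ubiquitin genes had small contrasts, mostly of one sign. Of 16 measured, 15 had a positive contrast, beside 45.7% of all genes, none was called (beside 0.0354% called higher) and 5 were higher at an unadjusted p below 0.05 (beside 5.83%), with a median contrast of 0.20. PSMB10, a catalytic subunit of the immunoproteasome, read 9.72, 9.70, 9.68 and 9.21 in late functional glands, 8.49 to 9.16 in mid-late and 8.31 to 8.90 in late regressed glands. No gland overlapped, and the contrast was 0.81 (SE 0.16, adjusted p = 0.170). UBE2L6, the conjugating enzyme for the ubiquitin-like protein ISG15, read 10.46, 10.48, 10.19 and 9.57 against 9.51 at most (contrast 1.28, adjusted p = 0.344). Late functional glands lay above all others for 2 of the 16 genes, beside 0.842% of all genes. In both genes late functional gland 4 was the lowest of its group. Averaged over the list, that gland read 9.12, inside the range of the other groups, while the other 3 late functional glands read 9.54, 9.63 and 9.5.

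Macrophage markers moved with these immune lists against mid-late glands. All 8 measured macrophage markers had a positive contrast (beside 45.7% of all genes) and a mean above the NC percentile. None was called, beside 0.0354% of all genes called higher, and 3 were higher at an unadjusted p below 0.05, beside 5.83%. The mean over the 8 was between 9.0 and 9.05 in all 4 late functional glands, from 6.90 to 8.79 in mid-late glands and from 8.06 to 9.70 in late regressed glands. Late regressed gland 3, at 9.70, was the highest of all 12, so the groups overlapped. The median contrast was 0.64, made of 1.29 against mid-late and -0.06 against late regressed glands. It was 0.044 with the NC mean as a covariate and 1.05 without late regressed arrays 2 and 3. C1QA and C1QB, subunits of complement C1q, had late functional glands above all others, beside 0.842% of all genes, C1QA at 10.20 to 10.86 against at most 10.17. CSF1R, the receptor for the macrophage growth factor, averaged 7.07, 8.35 and 7.76 in mid-late, late functional and late regressed glands. Against late regressed glands only 4 of the 8 differences were positive, beside 49.3% of all genes. TYROBP, CD68, MRC1 and AIF1 went the other way, with differences from late regressed glands of -0.74, -0.62, -0.24 and -0.12. The part of macrophages in the values of the antigen presentation and interferon lists was not tested.

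For markers of other immune cells, list means in late functional glands overlapped those in late regressed glands. They overlapped mid-late glands too, except over the mast cell genes, which read 4.52 to 5.15 at mid-late. Means over each list in late functional glands were 8.12 to 8.62 over 3 T and NK cell genes, 4.14 to 4.46 over 3 neutrophil genes, 4.13 to 4.25 over 4 B cell genes and 5.21 to 5.32 over 3 mast cell genes. Median contrasts were 0.01, -0.15, -0.06 and 0.03 in that order. Only 1 of 3 neutrophil, 1 of 4 B cell and 1 of 3 mast cell genes had a mean above the NC percentile. The bright mast cell list member, KIT, averaged 9.27 in late functional glands, 7.91 at mid-late and 8.63 after regression, and CPA3 and MS4A2, which mark mast cells more narrowly, stayed between 3.24 and 3.51 in group means.

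**Figure D4:**
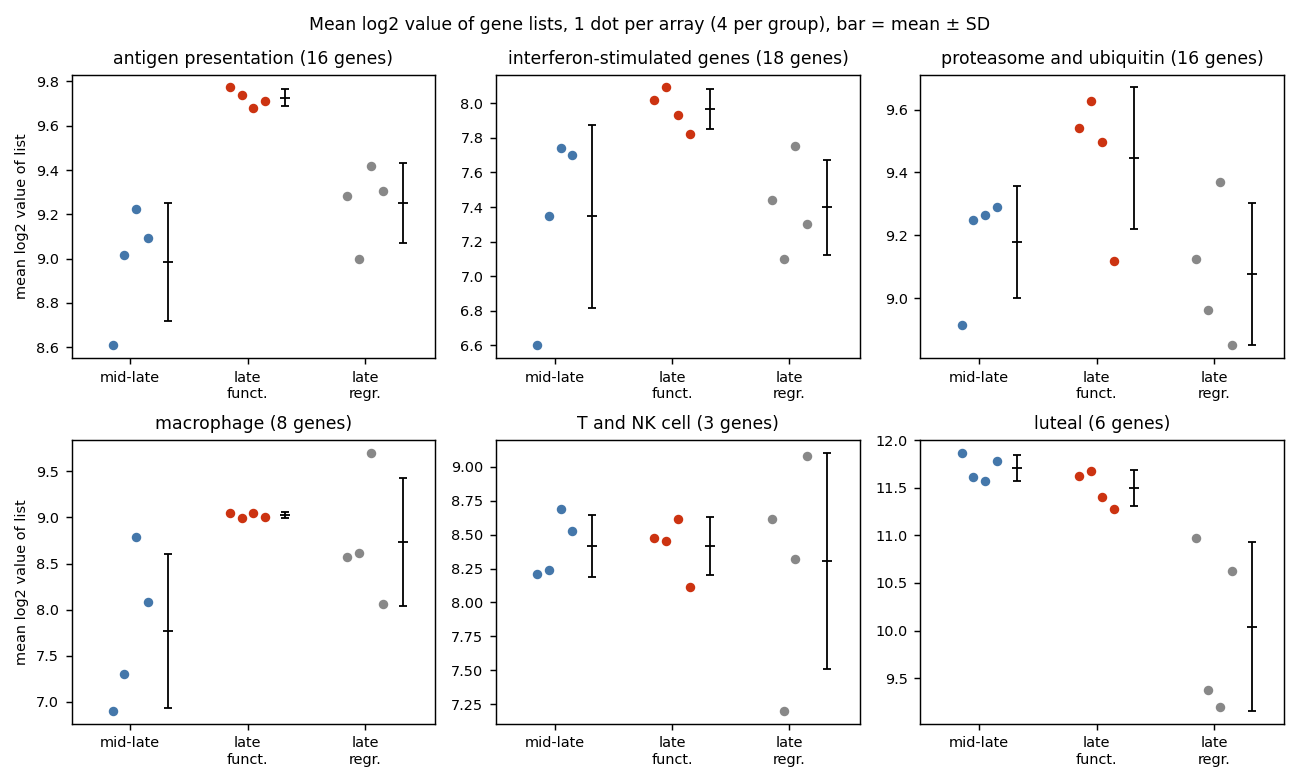
Mean log2 value over the measured genes of 6 lists in each gland (1 dot per array, 4 per group), with group mean and SD. Late functional glands (red) lie above all others for antigen presentation and interferon-stimulated genes, and overlap other groups for the proteasome, macrophage, T and NK cell and luteal lists.

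None of the 10 measured genes of a luteal panel was called in the contrast by limma. STAR, which brings cholesterol to the inner mitochondrial membrane, read 13.63, 13.69, 13.53 and 13.15 in late functional and 13.38 to 13.66 in mid-late glands. Late regressed glands read 13.54, 10.14, 9.68 and 11.92, so late regressed gland 1 lay within the functional range while 2 others were lower by more than 3 log2 units. The STAR contrast was 1.08 (95% interval -0.13 to 2.30, adjusted p = 0.601), carried by the late regressed glands, since the difference from mid-late glands was -0.02. CYP19A1, the aromatase, had the same shape, with 11.75 ± 0.32 (SD, n = 4) in late functional glands, 11.64 ± 0.56 at mid-late and 8.56 ± 1.52 after regression (contrast 1.65, interval 0.53 to 2.78, adjusted p = 0.379). PGRMC1, a membrane component linked to progesterone binding, averaged 11.54, 11.58 and 10.90 (contrast 0.37, adjusted p = 0.348).

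HSD3B2 and HSD11B1 were instead intermediate in the late functional gland. HSD3B2, which makes progesterone from pregnenolone, read 11.64, 12.05, 11.16 and 11.78 in mid-late glands, 10.52, 10.43, 9.88 and 9.04 in late functional glands and 8.52, 9.04, 7.93 and 8.70 in late regressed glands. It fell from mid-late to late functional glands by 1.69 on the log2 scale (adjusted p = 0.0435), and the difference of 1.42 from late regressed glands was not called (adjusted p = 0.174). HSD11B1, which converts cortisone to cortisol, averaged 11.35, 9.71 and 8.22 in the same order. Their contrasts, -0.13 (95% interval -0.75 to 0.49) and -0.07 (-0.83 to 0.70), were near 0 because the late functional value lay midway, and neither sign held in all alternatives. MRAP, an accessory protein of the melanocortin receptor, averaged 8.87, 8.12 and 5.57. GATA6 and NR5A2, transcription factors of steroidogenic cells, averaged 9.29, 9.18 and 8.74 and 9.58, 9.32 and 8.80. HSD17B7 averaged 9.0, 8.80 and 8.33, and INSIG1, which holds back sterol synthesis, 7.83, 7.71 and 8.18.

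**Figure D5:**
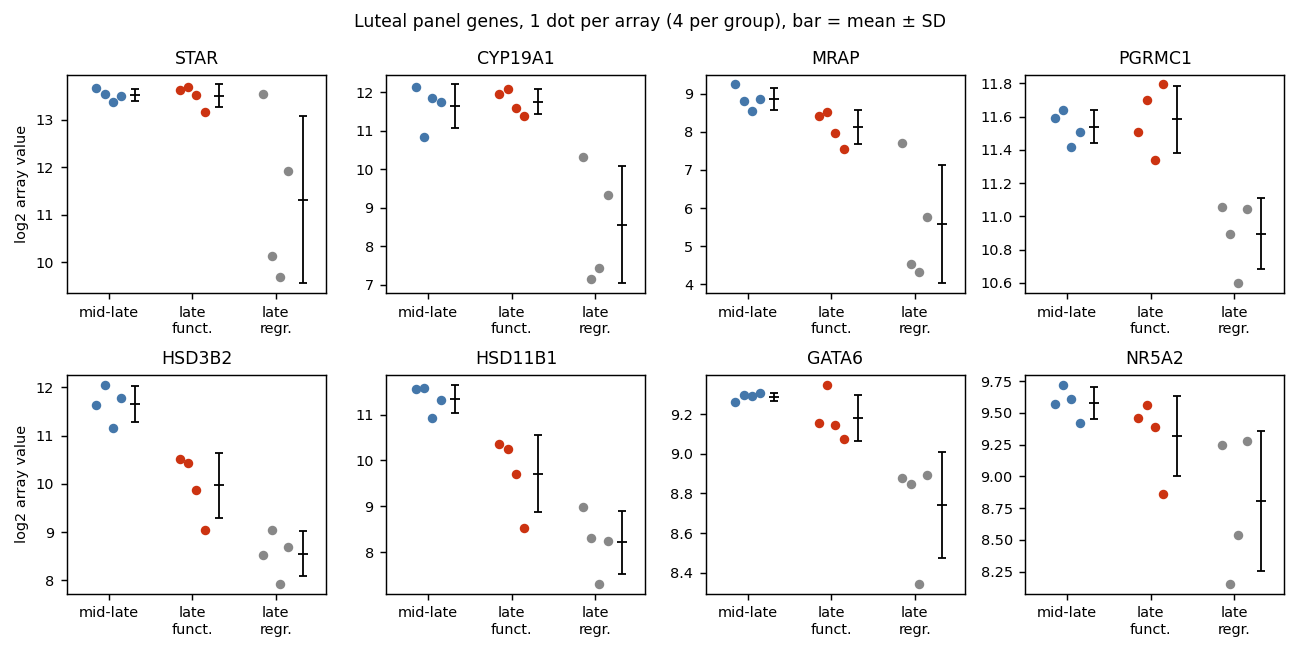
Log2 array values of 8 luteal panel genes in every gland (1 dot per array, 4 per group), with group mean and SD. Late functional glands (red) share the mid-late level for STAR, CYP19A1 and PGRMC1 and lie between the other groups for HSD3B2 and HSD11B1, and late regressed glands spread from 9.68 to 13.54 for STAR.

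In the cholesterol, progesterone and luteal cell lists, late functional medians lay nearer to mid-late than to late regressed glands. Cholesterol synthesis and uptake had a median contrast of 0.39 over 16 genes, from -0.09 against mid-late and 0.95 against late regressed glands, and progesterone synthesis and the LH receptor 0.16 over 14 genes (-0.07 and 0.49). The 6 luteal cell markers had 0.44 (-0.03 and 1.41). TM7SF2, a sterol reductase, had late functional glands above all others, at 10.53, 10.75, 10.54 and 10.27 against at most 10.24, with late regressed values from 6.64 to 9.76 (contrast 1.45, adjusted p = 0.409). In the cholesterol list 1 of 16 genes lay above all others, beside 0.842% of all genes. Oestrogen, androgen and glucocorticoid genes had a median of -0.06. Oxysterol receptor targets had 0.00, made of 0.30 against mid-late and -0.32 against late regressed glands. Means over those 12 genes ran from 8.18 to 8.33 in mid-late and from 8.52 to 8.59 in late functional glands, without overlap. Late regressed glands ran from 8.57 to 9.42. Without late regressed arrays 2 and 3, the medians were 0.19 for cholesterol synthesis and 0.16 for the luteal markers.

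Growth factor and stress genes gave single members of interest, none of them called. ID1, a target of bone morphogenetic proteins (BMPs) that blocks helix-loop-helix factors, read 10.23, 10.15, 10.07 and 9.92 in late functional glands, 9.24 to 9.85 in mid-late and 8.58 to 9.34 in late regressed glands. Its contrast was 0.87 (SE 0.16, adjusted p = 0.165), with no overlap. BMP2, a BMP ligand of the same list, lay below all others, with means of 5.76, 5.32 and 6.54 in mid-late, late functional and late regressed glands (contrast -0.83, adjusted p = 0.359). Of the 23 genes in that list, 1 lay above all others and 1 below, beside 0.842% and 0.290% of all genes. DLL4, a Notch ligand of vessel sprouts, also lay below all others (contrast -0.25, adjusted p = 0.485). In the angiogenesis list 1 of 17 genes did so, beside 0.290% of all genes. DDIT3, a stress-induced transcription factor, averaged 6.88, 6.73 and 8.08, and the early response gene EGR2 4.69, 4.80 and 7.24. CTSZ, a lysosomal cathepsin, averaged 7.57, 8.61 and 7.75 (contrast 0.95, adjusted p = 0.240).

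The erythroid and haem synthesis list held the FAM210B call, 1 of 17 measured genes beside 0.00708% of all genes called lower, with a median contrast of 0.05, and its other 16 genes were not called. FECH, which inserts iron into haem, averaged 7.43, 7.88 and 7.54, and TFRC, the transferrin receptor, 10.36, 9.75 and 10.01; these were named after their values were seen. No call for the contrast fell in the remaining lists. Median contrasts were 0.12 for antioxidant enzymes, 0.11 for lysosome and autophagy, and 0.04 for both cyclic AMP signalling and oxidative phosphorylation. They were -0.05 for apoptosis, -0.06 for hypoxia and glycolysis, -0.07 for the prostaglandin pathway, -0.07 for matrix and proteases, -0.03 for angiogenesis and -0.07 for TGF-beta signalling. Unfolded protein response genes had -0.10, ribosomal and translation factors -0.12, immediate early genes -0.19 and cell cycle genes -0.20. The cell cycle value was made of -0.56 against mid-late and 0.17 against late regressed glands. It was 0.08 without late functional array 4, whose mean over that list was 5.51 against 6.39 to 6.62 in the other late functional glands. The angiogenesis value was made of 0.06 and -0.26 in the same order. Its list means ran from 6.64 to 6.76 in mid-late, 6.84 to 6.86 in late functional and 7.04 to 7.15 in late regressed glands. The lysosome and autophagy value was made of 0.29 and -0.07. Its list means ran from 9.23 to 9.34, 9.60 to 9.66 and 9.44 to 10.02 in those 3 groups.

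For the remaining cell types, list means in late functional glands overlapped those in late regressed glands. They lay below all mid-late glands over the epithelial genes (4.70 to 4.85 against 4.97 to 5.32). The same held for the erythroid genes (5.02 to 5.42 against 5.44 to 5.77), while the other lists overlapped mid-late glands too. Median contrasts were 0.00 for 8 endothelial, 0.11 for 6 fibroblast, -0.02 for 3 pericyte and smooth muscle, -0.06 for 3 erythroid, -0.02 for 5 epithelial and -0.18 for 2 oocyte genes. DCN, a fibroblast proteoglycan, averaged 11.71, 12.69 and 12.64 in mid-late, late functional and late regressed glands, and the endothelial gene CLDN5 8.16, 8.24 and 8.87. KRT8, a keratin of epithelia, averaged 6.95, 5.22 and 5.67 (contrast -1.09, adjusted p = 0.401). Of all 34 lists, none had late functional glands below every other gland, and antigen presentation and interferon-stimulated genes were the 2 with late functional glands above.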

How the data were processed

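RNA of 12 rhesus macaque corpora lutea was measured on one-colour Affymetrix arrays, 1 array per gland and 4 glands per group, per the labels. Its probe set values, as deposited, are on a log2 scale and were made by the authors with RMA per the submitters' processing notes; neither its version and settings nor scan batches appear in the sources used here, and the log2 scale was read from the values. RMA usually equalizes distributions between arrays, which hides shifts in RNA content per cell. Of the probe sets, 158 array controls were left out and 52707 tested, of which 24956 carry 1 gene symbol, 361 several and 27390 none. Looked up by Entrez ID in a RefSeq gene table, 24616 symbols were found and 0 had changed.

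Group means were fitted with limma 3.58.1 in R 4.3.3 over all 12 arrays (lmFit, eBayes), with Benjamini-Hochberg adjustment over all probe sets and calls at an adjusted p below 0.05. The stricter test took the larger of the p-values against each other group where both differences had 1 sign. A gene in a list is its brightest probe set. The script was tested on simulated data. The members and lists (34, of which 22 pathways and 12 cell types) were chosen with earlier results of these data known. Named were up to 12 peaks and 12 dips without overlap (called by size, then uncalled by p), every call, a luteal panel of 12 genes of which 10 were measured, and up to 4 called or 2 lowest-p members of each list (the latter only with an unadjusted p below 0.05). The labels do not say that replicate numbers pair the arrays, and the main fit did not pair them. The 25 alternatives covered filters, normalization, the prior, covariates, weights, the replicate block and leaving out arrays. No promoter or protein sequences were used here. The number of arrays limits the precision.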

Additional observations from a re-analysis of the deposited data

Results flagged for a closer look

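Among 210 groups of 4 arrays examined (67 named probe sets and 3 quality measures), 19 arrays stood away from the other 3 of their group by more than Dixon's 95% critical value, where chance gives about 1 in 20 groups. Of these, 9 were late functional, 3 mid-late and 7 late regressed arrays.

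In late functional glands, array 4 stood apart for ST8SIA1 (8.68, others 7.81 to 7.95), PSMB10 (9.21, others 9.68 to 9.72), CASP8 (5.96, others 6.38 to 6.42) and HEXA (10.01, others 9.05 to 9.15). Array 3 did so for SAMD9L (9.03, others 9.49 to 9.55) and VEGFB (7.86, others 7.78 to 7.79). Array 2 did so for RGS4, at 3.89, and array 1 for CLCN3, at 10.47, and PTGIR, at 6.67.

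In mid-late glands, array 1 stood apart for UBE2L6 (7.41, others 9.26 to 9.51) and ACAP2 (6.93), and array 2 for ZFP36 (8.79). In late regressed glands, array 2 stood apart for CASP8 (4.13, others 5.82 to 5.89), APOE (12.14) and the 3' to 5' control difference (2.52). Array 3 did so for GATA6 (8.34) and the mean of the NC probe sets (3.48), and array 4 for EGR2 (4.93, others 7.86 to 8.14) and the second CACNB2 probe set (6.04, others 5.47 to 5.55).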

How the results depend on the processing

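The count of 10 calls became 4 with a replicate block (3 of them among the 10), 141 with array weights (111 higher, 30 lower), 0 with the NC mean as a covariate (limma, 3988 at an unadjusted p below 0.05) and 58 without late regressed arrays 2 and 3. Leaving out 1 array gave 1 to 64 calls, and all 10 were among those without late functional array 4. The labels do not say that equal replicate numbers pair the arrays. Correlations of same-numbered arrays ran from -0.12 to 0.30, and 5 of 12 arrays correlated best with their own number. The number to be had without pairing was not computed, so these values do not settle whether the arrays were paired. The single call beyond both groups became 4 with a trended robust prior (SAMD9L, CACNB2, ERAP2 and FAM210B) and 2 with genes averaged over probe sets (CACNB2 and SAMD9L). It became 0 with a filter at the median signal, renewed quantile normalization, the block, either covariate, at least 2-fold, or without late regressed arrays 2 and 3. Leaving out 1 array gave 0 to 7, the 7 without late functional array 4 (FAM210B, KALRN, OPA1, TAP2, 2 CALHM6 probe sets and 1 without a symbol).

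Of 1660 recomputed values of named probe sets, 9 changed sign. HSD3B2 became 0.0367 with array weights and 0.0639 with the NC covariate, and ran from -0.32 to 0.17 (without late functional array 4) when 1 array was left out. HSD11B1 became 0.0962 and 0.24 in the first pair and ran from -0.28 to 0.33 (without late functional array 4), at 0.0632 without late regressed array 1. Without late regressed arrays 2 and 3, INSIG1 became 0.0399 and NR5A2 -0.10. The median contrast of the antigen presentation list ran from 0.33 (NC covariate) to 0.80, of the interferon list from 0.18 (NC covariate) to 0.60 and of macrophage markers from 0.04 (NC covariate) to 1.05. The cause of these changes was not tested.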

Other observations

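The genes next to the named calls in gene order (up to 2 places away in the RefSeq gene table, coordinates not used) gave 16 measured neighbours, of which limma called 0, beside 0.0425% of all 14132 genes. An unadjusted p below 0.05 was found for 3 of the 16, beside 5.83% higher and 4.13% lower over all genes. Of these, 2 flank ERAP2. LNPEP, an aminopeptidase of the same family, averaged 4.99 ± 0.19 (SD, n = 4) in late functional glands, 4.42 ± 0.15 at mid-late and 4.69 ± 0.27 after regression, with a contrast of 0.44 (SE 0.12, adjusted p = 0.333). ERAP1, the partner trimming enzyme, averaged 8.03 ± 0.14, 7.26 ± 0.16 and 8.12 ± 0.41 in that order, so it was level with late regressed glands where ERAP2 was not. CMAS, next to ST8SIA1 and an enzyme that activates sialic acid, averaged 11.31, 11.51 and 10.56.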
